A study of Oryctolagus cuniculus with 9 samples.

Results

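IFFO1, NUP210L, RNF167, PPT1, SHMT2, PLTP, HMGXB3, EIF2AK4, BMP6 and TNIP1 were followed through the cartilage libraries of a rabbit knee defect study. These 10 genes, of 14870 listed, were selected on their high read level and on the gene that lies beside each of them. They were also chosen with earlier results of these data known. The neighbours were, in the same order, GAPDH, RPS27, PFN1, CAP1, NDUFA4L2, CTSA, CSF1R, SRP14, TXNDC5 and GPX3. All 10 genes were found by symbol. Their read level chose them, so it is a description without a test.

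The study made critical size defects in the knees of New Zealand white rabbits aged 4 to 5 months and collected tissue 12 weeks after surgery. Polyadenylated RNA was sequenced from 3 libraries of healthy cartilage, 3 of untreated defects and 3 of defects that received CLCS, a porous scaffold of collagen and chondroitin sulphate. The defects lay in the trochlea, untreated in the left and CLCS in the right knee, while the healthy tissue came from the condyle, so healthy tissue differed from the defects in site as well. The study's scheme gives 3 rabbits. Whether equal replicate numbers mark the same rabbit is not stated, and no group is a pure cell type.

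A gene's expression level in such data is the number of reads that the counting step assigns to it. Genes often lie close together on a chromosome, and some overlap. Where 2 genes overlap and the strand of a read is not used, reads that lie wholly in the shared stretch cannot be told apart by position. The strand setting of the count is not given in the sources used here. Several of the neighbours, among them GAPDH of glycolysis, RPS27 of the small ribosomal subunit and PFN1, which binds actin, belong to genes that most tissues express abundantly.

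Library totals were between 724986 and 1226408 recovered reads, which limits the precision for genes with few reads. The study reports far more aligned read pairs per library than these totals. Why most of them are absent from the gene counts was not examined. A single gene without a symbol held 1.49% to 49.4% of a library. The lowest of these shares was in untreated replicate 3 and the highest in CLCS replicate 3. The summed normalized reads of the 10 listed chondrocyte markers, of 15 fixed, were 8183 to 10832 in healthy, 754 to 9995 in untreated and 10011 to 28090 in CLCS libraries, with the lowest value in untreated replicate 3 and the highest in CLCS replicate 3. COL2A1 held 85.6% of this sum, MATN1 and MATN3 had 3 reads or fewer in every library, and COL9A3, COMP, CHAD, PRG4 and CNMD were not found by symbol.

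Of the 10 genes, 9 ranked among the 20 genes with the most reads by mean CPM, the reads of a gene scaled to the library total. IFFO1 ranked 5, NUP210L 6, RNF167 10, PPT1 11, SHMT2 13, PLTP 14, HMGXB3 16, EIF2AK4 17 and BMP6 19 of 14870 genes. TNIP1 ranked 1407, with 9 to 155 reads per library, so that the name of a high-read gene did not hold for it. The other 9 had 1089 to 34713 reads per library, where the median over all genes of the median reads per library was 1. The 10 genes held 9.06% to 9.81% of the reads of a healthy library, 8.70% to 13.3% of an untreated library and 6.85% to 10.3% of a CLCS library. With the single largest gene left out of the total, their share was between 11.4% and 13.7% in all 9 libraries.

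Levels were also set per length, with the span of the gene, introns included, in the RefSeq gene table of mOryCun1.1. This is another assembly than OryCun2.0, to which the reads were aligned. On the scale of CPM per kb of gene span, RNF167 ranked 1 and SHMT2 ranked 2 of 10305 genes placed by symbol, with 2858 and 1961 CPM per kb. IFFO1 ranked 5, PLTP 7, PPT1 23, NUP210L 51, HMGXB3 58, EIF2AK4 116 and BMP6 178 on this scale. TNIP1 ranked 1953 with 0.918 CPM per kb, and the median gene had 0.0844 CPM per kb. The long genes EIF2AK4 and BMP6 thus stood lower per length than by reads.

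In the gene table of mOryCun1.1, NUP210L overlapped RPS27 and PLTP overlapped CTSA, and the other 8 genes lay within 1000 bases of their neighbour. Of the neighbours, 7 were found by symbol in the deposited tables. RPS27, CAP1, which regulates actin, and GPX3, a secreted glutathione peroxidase, were not found by symbol, so the pairs of NUP210L, PPT1 and TNIP1 have no value here. In all 7 remaining pairs the selected gene had more reads than its neighbour in 9 of 9 libraries, and this held also per kb of gene span.

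IFFO1, a relative of the intermediate filament proteins, had 7088 to 34713 reads per library. GAPDH beside it had 91, 32 and 78 reads in the healthy, 16, 16 and 37 in the untreated and 15, 23 and 26 in the CLCS libraries. The summed reads of IFFO1 were 452 times those of GAPDH, and 98.2 times per kb of gene span. NOP2, also within 1000 bases of IFFO1, had 1 to 7 reads.

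RNF167, a membrane-bound ubiquitin ligase, had 3451 to 19849 reads per library, and PFN1 had 0 to 6. Over the 9 libraries PFN1 had 17 reads in all and RNF167 had 91120. SLC25A11, also within 1000 bases of RNF167, had 0 to 3 reads. No gene within 1000 bases of RNF167 that was found by symbol thus had more than a few reads.

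SHMT2, the mitochondrial serine hydroxymethyltransferase, had 3176 to 19859 reads per library. NDUFA4L2, a mitochondrial protein gene known to respond to hypoxia, had 9, 10 and 13 reads in the healthy, 4, 2 and 3 in the untreated and 2, 1 and 9 in the CLCS libraries. The summed reads of SHMT2 were 1423 times those of NDUFA4L2, and 630 times per kb of gene span. EIF2AK4, the kinase GCN2 that senses lack of amino acids, had 1582 to 9797 reads, and SRP14, of the signal recognition particle, had 0 to 15. The ratio of summed reads in this pair was 1087, and 28.2 per kb of gene span.

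HMGXB3, a protein with an HMG box, had 1089 to 10688 reads per library. CSF1R, the receptor of macrophages for their growth factor, had 5, 7 and 2 reads in the healthy, 13, 15 and 18 in the untreated and 11, 13 and 9 in the CLCS libraries. The ratio of summed reads was 526, and 274 per kb of gene span. BMP6, a secreted signal of the bone morphogenetic protein family, had 2184 to 9413 reads. TXNDC5, a protein disulfide isomerase of the endoplasmic reticulum, had 19 to 120, and the ratio of summed reads in this pair was 77.1, and 13.0 per kb of gene span.

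PLTP, the phospholipid transfer protein of plasma lipoproteins, and CTSA, a lysosomal carboxypeptidase, were the pair in which a neighbour came nearest. CTSA had 8, 12 and 92 reads in the healthy, 17, 11 and 3069 in the untreated and 59, 22 and 356 in the CLCS libraries. Replicate 3 was the highest in every group, and untreated replicate 3 stood far above the other 8 libraries. PLTP had 2256 to 9634 reads, and its ratio to CTSA was between 2.93 in untreated replicate 3 and 851 in untreated replicate 2. In normalized reads CTSA in untreated replicate 3 was 6.28 times the next library. Of 1891 genes with at least 50 reads in a library, 9 (0.476%) were more than 5 times higher in untreated replicate 3 than in any other library, against 0 to 5 genes for each of the other libraries.

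**Figure D1:**
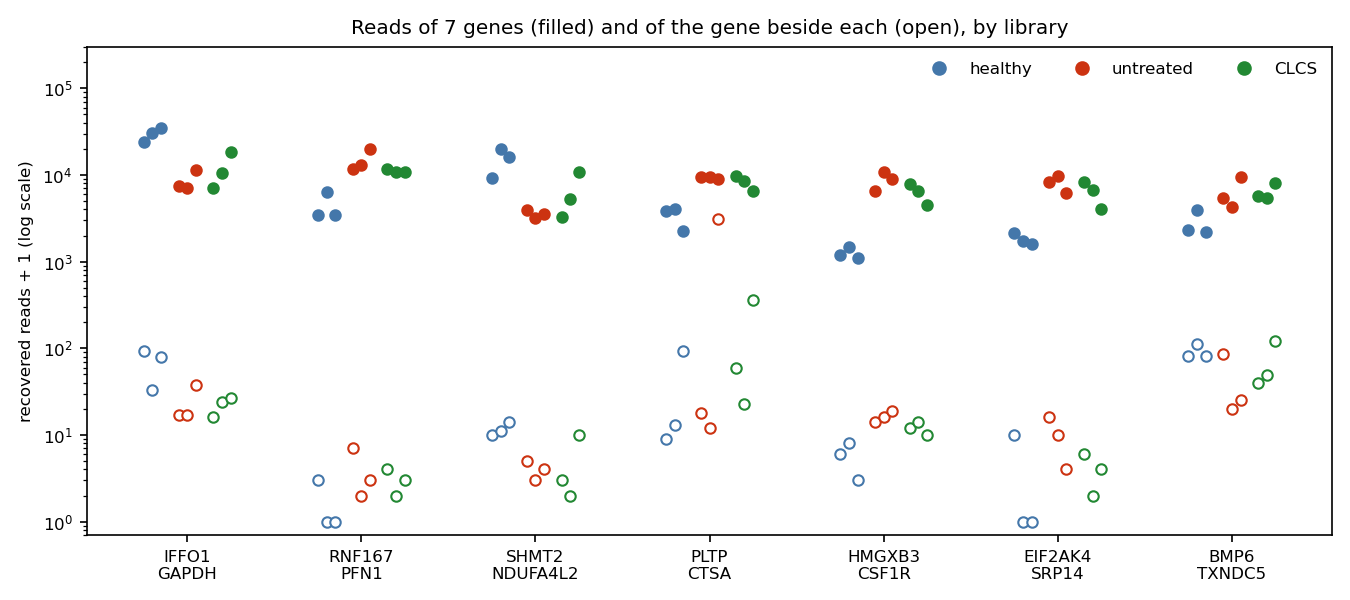
Recovered reads plus 1 on a log axis for the 7 pairs found by symbol, with 1 point per library and the replicates 1, 2 and 3 from left to right in each color. Filled points are the selected gene and open points its neighbour. Every filled point lies above the open point of the same library, and the smallest gap is PLTP to CTSA in untreated replicate 3, a ratio of 2.93.

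The first comparison set untreated defects against healthy cartilage, the question of which genes differ in tissue that was left to heal alone. Expression is given as normalized reads, the deposited unit, in which reads are divided by the size factor of the library. These are the reads assigned to a gene. Whether those of the 10 genes come from the genes beside them was not tested. HMGXB3 and EIF2AK4 rose, and IFFO1, SHMT2 and TNIP1 fell. That makes 5 of 10 genes called by limma at an adjusted p under 0.05, where 89 of 3496 genes tested (2.55%) were called. By direction, 2 of the 10 rose, where 47 genes (1.34%) did, and 3 fell, where 42 genes (1.20%) did. All 10 genes passed the filter on low counts. The values of the untreated and healthy libraries did not overlap for any of the 10 genes, and for 22.0% of all genes tested. The median absolute log2 fold change was 1.77 over the 10 genes and 0.40 over all genes tested. The 10 genes were chosen with earlier results of these data known, and most of them have many reads. What these shares and the median owe to that choice was not tested.

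HMGXB3 had 1121, 1513 and 984 normalized reads in the healthy libraries and 5108, 10690 and 8242 in the untreated ones. The lowest untreated library was above the highest healthy library. The means were 1206 ± 275 and 8013 ± 2798 (SD, n = 3 each), and the log2 fold change on log2 of the value plus 1 was 2.69 (SE 0.37, limma adjusted p = 0.0251).

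EIF2AK4 had 2010, 1734 and 1429 normalized reads in the healthy libraries and 6592, 9799 and 5680 in the untreated ones, again without overlap. Its log2 fold change was 2.07 (SE 0.33, limma adjusted p = 0.0286). Both genes were thus over 4 times higher in the mean of the untreated defects, at 6.64-fold for HMGXB3 and 4.27-fold for EIF2AK4.

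IFFO1 had 22344, 30867 and 31363 normalized reads in the healthy libraries and 5844, 7169 and 10472 in the untreated ones. The highest untreated library was below the lowest healthy library. The log2 fold change was -1.87 (SE 0.33, limma adjusted p = 0.0358).

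SHMT2 had 8716, 20154 and 14720 normalized reads in the healthy libraries and 3145, 3177 and 3238 in the untreated ones. The untreated libraries lay close together, at 3186 ± 47.2 (SD, n = 3), while the healthy ones ranged widely. The log2 fold change was -2.11 (SE 0.36, limma adjusted p = 0.0324).

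TNIP1, whose protein restrains NF-κB signalling, had 146, 56.8 and 61.4 normalized reads in the healthy libraries and 18.1, 10 and 8.16 in the untreated ones. Its log2 fold change was -2.70 (SE 0.47, limma adjusted p = 0.0324), and it was the one of the 10 with the fewest reads. In the untreated libraries it rested on 23, 10 and 9 reads.

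The other 5 genes did not pass the test of limma on log2 of the value plus 1. RNF167 had 4302 ± 1900 normalized reads in healthy and 13359 ± 4430 in untreated libraries (SD, n = 3 each), with a log2 fold change of 1.67 (SE 0.41, limma adjusted p = 0.0878). PPT1, a lysosomal enzyme that removes palmitate from proteins, had 4681 ± 382 and 12065 ± 2309, with a log2 fold change of 1.35 (SE 0.29, limma adjusted p = 0.0627). PPT1 did pass with a pseudocount of 5 (limma adjusted p = 0.0385) and on log2 CPM with TMM normalization (limma adjusted p = 0.0480). PLTP had 3258 ± 1092 and 8300 ± 1001, with 1.40 on the log2 scale (SE 0.35, limma adjusted p = 0.0894).

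BMP6 had 2168, 3977 and 1973 normalized reads in the healthy and 4311, 4266 and 8534 in the untreated libraries, with 1.07 on the log2 scale (SE 0.42, limma adjusted p = 0.262). NUP210L, a relative of a nuclear pore protein, had 20283, 19945 and 15076 and then 11798, 12937 and 11347, with -0.61 on the log2 scale (SE 0.28, limma adjusted p = 0.341). Untreated replicate 3 was the highest library for BMP6 in its group and stood apart from the values of 4311 and 4266.

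DESeq2 on the recovered reads called 8 of the 10 genes in this comparison, all except BMP6 and NUP210L, where it called 275 of 3496 genes (7.87%). When any of the 6 libraries was left out, limma called 0 of the 10 genes, and 1 to 9 of all genes tested. In each such fit 8 or 9 of the 10 genes had an unadjusted p under 0.05, as had 548 to 637 of the 3656 to 4041 genes tested.

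**Figure D2:**
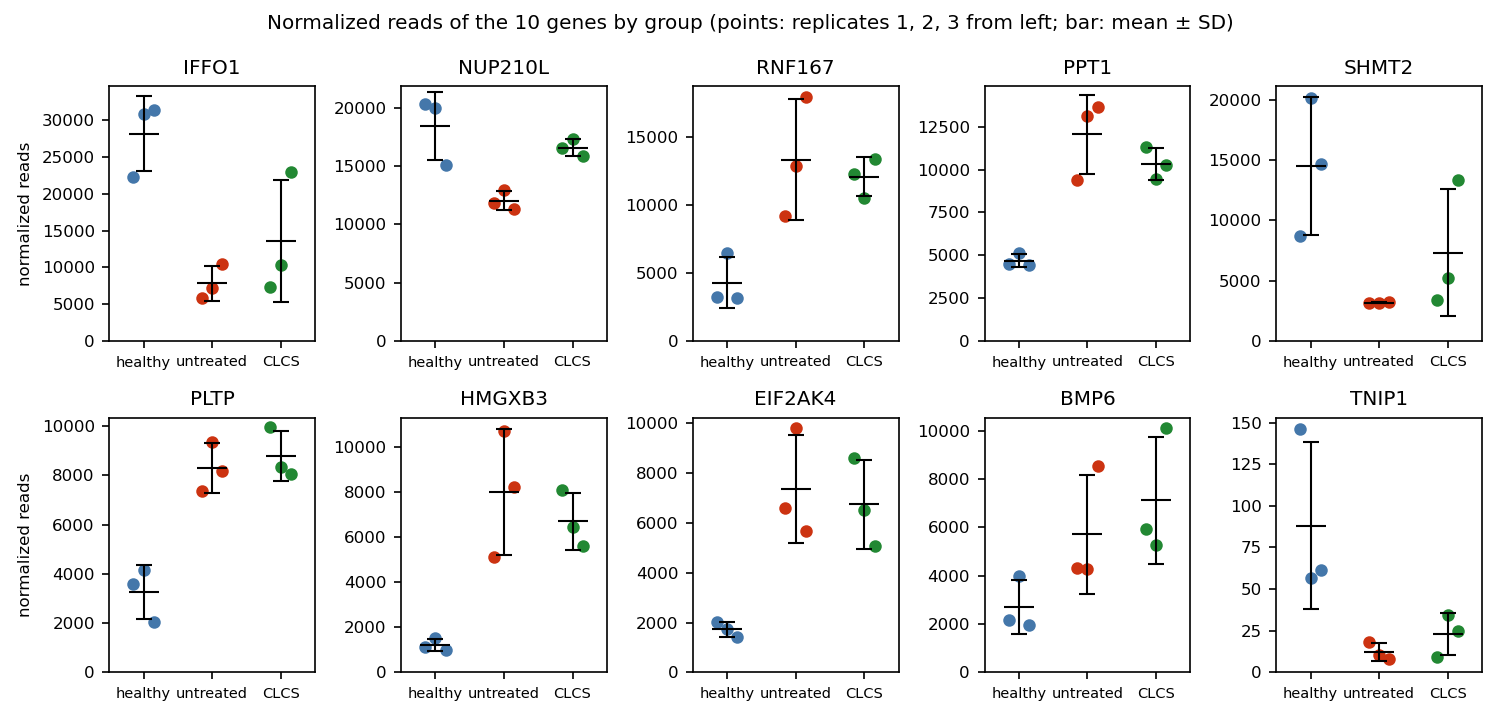
Normalized reads of each of the 10 genes on its own linear axis from 0, by group, with points for the replicates 1, 2 and 3 from left to right and bars for the mean ± SD (n = 3). HMGXB3 and EIF2AK4 lie higher and IFFO1 and SHMT2 lower in the untreated than in the healthy libraries without overlap, and CLCS replicate 3 is the highest CLCS library for IFFO1, SHMT2 and BMP6.

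The second comparison set CLCS treated defects against healthy cartilage. It shares the 3 healthy libraries with the first, so the values of both are given side by side and their likeness is not a result. HMGXB3 and EIF2AK4 rose. That makes 2 of 10 genes called, both higher, where limma called 104 of 3294 genes tested (3.16%), 70 of them higher (2.13%) and 34 lower (1.03%). The CLCS and healthy libraries did not overlap for 7 of the 10 genes and for 24.2% of all genes tested. The median absolute log2 fold change was 1.45 over the 10 genes and 0.40 over all genes tested. What these values owe to the choice of the genes was again not tested.

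HMGXB3 had 8076, 6440 and 5590 normalized reads in the CLCS libraries, all above the healthy ones. Its log2 fold change was 2.48 (SE 0.30, limma adjusted p = 0.0105). EIF2AK4 had 8610, 6522 and 5081, with a log2 fold change of 1.95 (SE 0.31, limma adjusted p = 0.0266). CLCS replicate 3 was the lowest CLCS library for both genes.

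IFFO1 had 7324, 10311 and 22948 normalized reads in the CLCS libraries, and replicate 3 lay within the range of the healthy libraries. SHMT2 had 3400, 5228 and 13321, and its replicate 3 lay there as well. The log2 fold changes were -1.21 for IFFO1 (SE 0.45, limma adjusted p = 0.219) and -1.15 for SHMT2 (SE 0.55, limma adjusted p = 0.341). CLCS replicate 3 was also the library with the largest share of reads on a single gene and the highest sum of chondrocyte markers, and the part of these in the values was not tested.

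TNIP1 had 9.30, 34.4 and 24.9 normalized reads in the CLCS libraries, with -1.94 on the log2 scale (SE 0.56, limma adjusted p = 0.121). NUP210L had 16510, 17299 and 15866, between the lowest and the highest healthy library, with -0.14 (SE 0.27, limma adjusted p = 0.831).

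The other 4 genes had higher values in every CLCS library than in any healthy one and did not pass the test. The log2 fold changes were 1.57 for RNF167 (limma adjusted p = 0.0679), 1.49 for PLTP (limma adjusted p = 0.0693), 1.14 for PPT1 (limma adjusted p = 0.0654) and 1.41 for BMP6 (limma adjusted p = 0.117). RNF167 had 12263, 10561 and 13414 normalized reads in the CLCS libraries, PLTP had 9955, 8352 and 8038, PPT1 had 11319, 9447 and 10259, and BMP6 had 5938, 5272 and 10112.

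DESeq2 called 7 of the 10 genes in CLCS against healthy libraries, where it called 243 of 3294 genes (7.38%). These were HMGXB3, EIF2AK4, RNF167, PLTP, PPT1, BMP6 and TNIP1. The study's own DESeq2 list of CLCS against healthy holds these 7 and also IFFO1, as lower. In the DESeq2 fit made here IFFO1 did not pass (adjusted p = 0.198). Limma with 1 library left out called HMGXB3 without healthy replicate 1 (adjusted p = 0.0393), HMGXB3 and RNF167 without healthy replicate 2 (adjusted p = 0.0335 and 0.0374) and 0 of the 10 genes without any of the other 4 libraries.

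The third comparison set the CLCS treated against the untreated defects, which is the question of what the scaffold changed. None of the 10 genes was called by limma, edgeR or DESeq2. Limma called 0 of all 3275 genes tested (0%), with 95 at an unadjusted p under 0.05, against 88 for edgeR and 76 for DESeq2. Of the 10 genes, 0 were among the 95 of limma, 1 (SHMT2) among the 88 of edgeR and 2 (SHMT2 and NUP210L) among the 76 of DESeq2. The groups did not overlap for 2 of the 10 genes, SHMT2 and NUP210L, and for 8.34% of all genes tested.

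SHMT2 had 7316 ± 5280 normalized reads in CLCS and 3186 ± 47.2 in untreated libraries (SD, n = 3 each). Its log2 difference was 0.96 (SE 0.49, limma adjusted p = 0.996), and the lowest CLCS library, at 3400, was just above the highest untreated one, at 3238. NUP210L had 16558 ± 718 in CLCS and 12027 ± 820 in untreated libraries, a log2 difference of 0.46 (SE 0.24, limma adjusted p = 0.996). The CLCS libraries of SHMT2 spread widely, with replicate 3 at 13321.

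IFFO1 differed by 0.66 (SE 0.46) and TNIP1 by 0.76 (SE 0.51) on the log2 scale, both toward higher values in CLCS libraries and with overlap between the groups. The log2 differences of PLTP, RNF167, BMP6, EIF2AK4, HMGXB3 and PPT1 lay between -0.21 and 0.34, with standard errors from 0.25 to 0.40. With such errors a moderate difference between treated and untreated defects was not detectable.

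**Figure D3:**
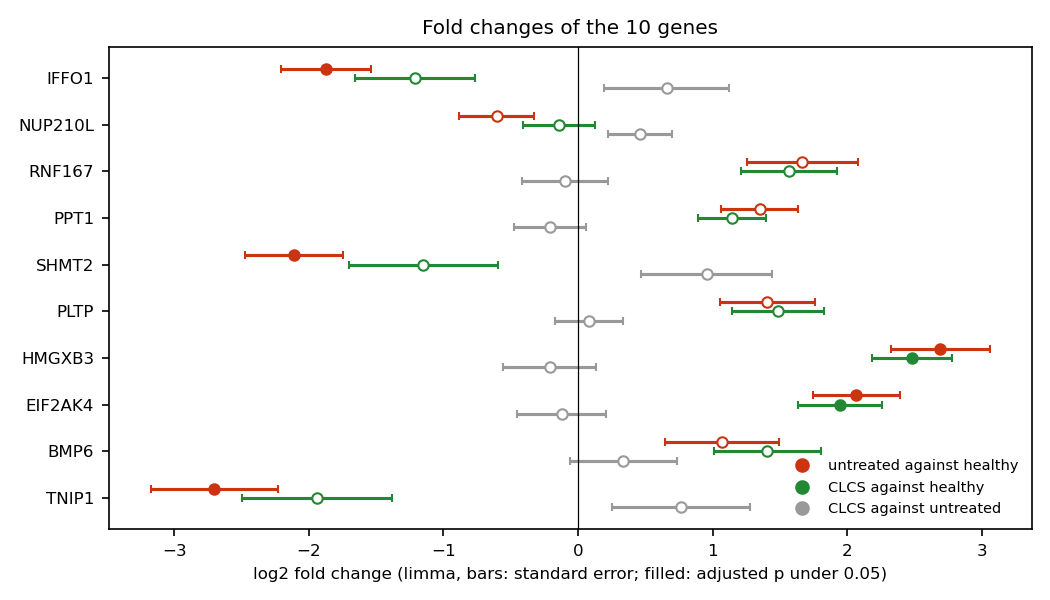
Log2 fold changes of the 10 genes in the 3 comparisons, with bars for the standard error of limma and filled points for an adjusted p under 0.05. Filled points are 5 in untreated against healthy, 2 in CLCS against healthy and 0 in CLCS against untreated libraries, and the comparisons with healthy tissue share its libraries.

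The neighbours were compared in the same fits. Of the 7 found by symbol, GAPDH, TXNDC5, CTSA and CSF1R passed the filter on low counts in untreated against healthy libraries, and all except CSF1R did in CLCS against healthy libraries. PFN1, NDUFA4L2 and SRP14 had too few reads to be tested. Limma called 0 of the neighbours in each of the 3 comparisons. An unadjusted p under 0.05 was found for 3 of 4 neighbours in untreated against healthy, where 582 of 3496 genes had one. It was found for 1 of 3 in CLCS against healthy, beside 576 of 3294 genes, and for 0 of 4 in CLCS against untreated libraries, beside 95 of 3275. DESeq2 on the recovered reads also called 0 of the neighbours. It gave CTSA no adjusted p in untreated against healthy and in CLCS against untreated libraries. The study's own DESeq2 list of untreated against healthy holds GAPDH as lower and CTSA as higher.

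The normalized reads of GAPDH averaged 62.9 ± 27.4 over healthy, 20.7 ± 11.2 over untreated and 23.5 ± 8.47 over CLCS libraries (SD, n = 3 each). The log2 fold change in untreated libraries was -1.57 (SE 0.50, limma adjusted p = 0.164), beside -1.87 for IFFO1. CSF1R had 4.54 ± 2.65, 13.9 ± 3.20 and 11.8 ± 0.874, with 1.53 in untreated libraries (SE 0.44, limma adjusted p = 0.135), beside 2.69 for HMGXB3. The means of both neighbours lay on the same side of healthy tissue as the selected gene.

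The normalized reads of TXNDC5 averaged 87.1 ± 23.1 over healthy, 35.9 ± 26.9 over untreated and 79.0 ± 61.1 over CLCS libraries (SD, n = 3 each), and its log2 fold change in untreated libraries was -1.46 (SE 0.51, limma adjusted p = 0.20), beside 1.07 for BMP6. CTSA had a log2 fold change of 1.89 in untreated libraries (SE 2.07, limma adjusted p = 0.750), beside 1.40 for PLTP. Without untreated replicate 3 that of CTSA was -0.69, while PLTP had 7373, 9361 and 8166 normalized reads in the untreated libraries, with no such difference between them. The untreated and CLCS means lay on the same side of the healthy mean for gene and neighbour in 6 of the 7 pairs. BMP6 with TXNDC5 was the exception. However, the direction in 3 of the 6 rests on the few reads of PFN1, NDUFA4L2 and SRP14 and in 1 on CTSA. CSF1R, in another of the 6, also had only 2 to 18 reads per library. The share of such pairs over all genes was not computed.

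Markers of macrophages were examined because CSF1R is one of them. Of 15 fixed markers, 13 were found by symbol, and their summed normalized reads were 39.8 to 47.1 in healthy, 67.0 to 248 in untreated and 78.4 to 89.5 in CLCS libraries. TYROBP held 37.3% of the reads of the 13, and CD163 and ITGB2, 2 of the 13, had 3 reads or fewer in every library. The 7 of 8 osteoclast markers found by symbol summed to 6.32 to 34.9 in healthy, 68.0 to 165 in untreated and 46.1 to 170 in CLCS libraries. MMP9 held 43.1% of the reads of these 7, and DCSTAMP had 3 reads or fewer in every library. Both sums were higher in every defect library than in any healthy one, as were HMGXB3, EIF2AK4, RNF167, PPT1, PLTP and BMP6, and their part in the values of the selected genes was not tested. In such bulk tissue, fewer cells of a type and less RNA per cell cannot be told apart.

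What the 10 genes share beyond their reads was set beside all genes. Among the 100 genes with the most reads, 74 could be placed by symbol, and 60 of these (81.1%) had another coding gene within 1000 bases or in overlap, in any orientation. Of all 10305 genes placed, 41.0% had one. Without the selected genes the share in the top 100 was 51 of 65 (78.5%). It was 75.0% for the top 50 and 80.1% for the top 200. Within 5000 bases the shares were 94.6% for the top 100 and 59.5% for all genes, and with overlap alone 40.5% and 22.0%. Strand and orientation were not analysed here, and genes that lie together can share reads, so that no test was made.

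**Figure D4:**
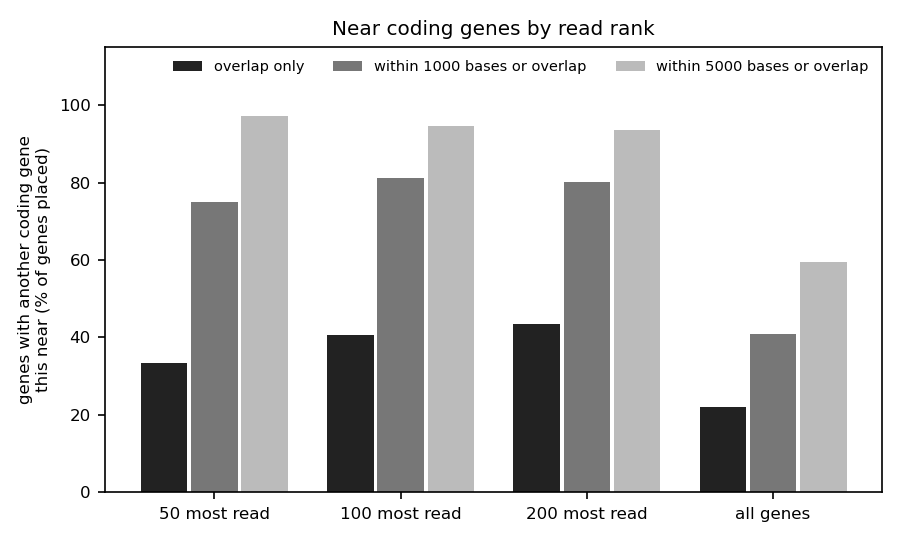
Percentage of the genes placed by symbol that have another coding gene in overlap, within 1000 bases or within 5000 bases, for the 50, 100 and 200 genes with the most reads and for all genes. At 1000 bases the bars stand at 75.0%, 81.1%, 80.1% and 41.0%.

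The same was asked from the side of abundant genes. From a list of 170 genes for ribosomal proteins, housekeeping functions and cartilage matrix, with the selected genes and their neighbours left out of the pairs, 97 were found by symbol. Of these, 84 had a median of fewer than 100 reads per library, and 4 were among the 100 genes with the most reads. The median over the 97 of their median reads was 15. For 21 of them a coding gene within 1000 bases or in overlap was found by symbol, and in 7 of these 21 pairs the abundant gene had fewer reads than the gene beside it. Where several genes lay near, that with the highest mean CPM was taken. The same share over all genes was not computed, so the count is a description.

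The 5 whose near gene had the most reads were RPS28, RPL15, RPL4, MYL6 and COL11A2. RPS28, of the small ribosomal subunit, had 7 to 36 reads per library, and KANK3 beside it had 745 to 1857. RPL15, of the large subunit, had 0 to 2 reads, and NKIRAS1 beside it had 902 to 1395. In both pairs the ranges of reads did not overlap.

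RPL4 had 82 to 194 reads and ZWILCH beside it 1 to 836, with overlapping ranges. MYL6, a myosin light chain, had 24 to 76 and SMARCC2 36 to 162. COL11A2, a collagen of cartilage, had 76 to 1130 and RXRB beside it 10 to 129. The last of these pairs had the higher mean CPM in the abundant gene, as had RPL4 with ZWILCH.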

How the data were processed

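Values for 9 libraries were read from 2 tables, whose 3 healthy columns hold identical values and were used once; 0 columns belonged to other samples. As deposited, each value is a signal, the reads of a gene divided by the authors' DESeq2 size factor of the library. The authors used TopHat and Bowtie to place TruSeq polyA reads on OryCun2.0, dropped reads with several alignments and counted with eXpress; versions, annotation release and strand setting are not given in the sources used here. Whole reads were recovered for 100% of the values (tolerance 0.001). Groups came from the sample labels.

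Each pair of groups was fitted over all genes kept by filterByExpr of edgeR 4.0.16 with limma 3.58.1 (lmFit, eBayes; R 4.3.3) on log2 of the value plus 1, and genes were called under an adjusted p of 0.05 (Benjamini-Hochberg). The alternatives were pseudocounts of 0.5 and 5, no filter, edgeR with TMM, DESeq2 1.42.0, log2 CPM with TMM, the replicate block and leaving out each library. The fits were also run on simulated data with the same dispersion for all genes and no outlying library. The real libraries can differ from that setting, and no result here rests on it. P-values rest on the spread between these libraries, which limma moderates with that of all genes tested. With 3 against 3, an exact permutation p cannot go under 0.1, so none is given for single genes.

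The genes and lists were chosen with earlier results of these data known. Genes were named by a rule: the 10 genes and their neighbours, the 5 abundant genes whose near gene has the most reads, and the 5 other genes of the top 100 with the most reads and a near gene. Near genes were taken in any orientation from the RefSeq gene table of mOryCun1.1, since it gives no strand; this was chosen after seeing the data. Deviations from group means, over 3812 genes, were correlated between same-numbered libraries. Pearson's r across genes was 0.29, 0.13 and -0.04 between the untreated and healthy groups. It was 0.28, 0.14 and 0.19 between CLCS and healthy tissue. Between both kinds of defect it was 0.25, 0.33 and 0.30. Between libraries of unequal number r was -0.23 to 0.11, -0.19 to 0.0065 and -0.26 to -0.044, in the same order of comparisons. Deviations within a group cancel out, so these values are not independent. The main fits did not take the numbers as pairs, and the replicate block was run as an alternative in every comparison.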

Additional observations from a re-analysis of the deposited data

How the results depend on the processing

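Without the filter on low counts, limma called 20 genes in untreated against healthy and 13 in CLCS against healthy libraries, and 0 of the 10 genes in either. DESeq2 called 275 and 243 genes, 8 and 7 of them among the 10, and a pseudocount of 5 gave 106 and 131 genes, 6 and 5 of them among the 10. Log2 CPM with TMM gave 96 and 109 genes, 6 and 2 of them among the 10. Leaving out 1 library gave 1 to 9 called genes in untreated against healthy and 0 to 75 in CLCS against healthy libraries, with 0 of the 10 genes in every such fit of the first and 0 to 2 in the second. Such fits leave an arm with 2 libraries. The replicate block gave 94, 125 and 0 called genes in the 3 comparisons, with 5, 2 and 0 of the 10 genes, and changed no call of the 10 genes or their neighbours. In CLCS against untreated libraries, CTSA was at -0.019 with a pseudocount of 5, -2.41 with edgeR and -2.40 with DESeq2, against 0.12 on the log2 scale. Leaving out 1 library there gave ranges of -1.23 to 2.70 for CTSA, -0.34 to 0.14 for RNF167, -0.012 to 0.17 for PLTP, -0.50 to 0.030 for HMGXB3, -0.31 to 0.11 for EIF2AK4 and -0.043 to 0.63 for GAPDH, and of -0.69 to 3.24 for CTSA in untreated against healthy libraries. The abundant genes with fewer reads than a near gene numbered 11 at 5000 bases and 3 with overlap alone, against 7. The number of pairs also changes with the distance and is not given for these settings. The counts of tail-to-tail neighbours and the reads per kb of coding length were not run, since the gene table holds neither strand nor exons.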

Other observations

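Other genes among the 100 with the most reads also had a coding gene within 1000 bases or in overlap. The 5 highest that were not among the selected genes were SPRYD3, TPR, WDR54, CCDC65 and GPSM2. SPRYD3, at rank 18, had 3460 to 9450 reads per library, and TNS2 beside it, a tensin of focal adhesions, had 50 to 262. WDR54, at rank 23, had 1097 to 13830 reads, while RTKN had 1 to 12 and DCTN1, of the dynactin complex, 2 to 9. TPR, at rank 21, had 342 to 11591 reads, and PRG4, the lubricin of joint cartilage, and ODR4 beside it were not found by symbol. CCDC65, at rank 24, had 1576 to 4974 reads with FKBP11 beside it, and GPSM2, at rank 25, had 2731 to 6164 with AKNAD1 beside it; neither of these near genes was found by symbol. Of 33 such genes with a near gene found by symbol, 29 had more reads than each near gene in every library. They were chosen for their high reads, where the median over all genes of the median reads per library was 1. Their lead over a near gene is thus a description without a test.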
